A study of Mus musculus with 18 samples.

Results

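MC38 colon tumours treated with both the MEK inhibitor GDC-0623 and an agonist anti-CD40 antibody (MEKi/CD40) were compared with tumours that received vehicle and a control antibody, using whole-tumour RNA on single-colour Affymetrix Mouse430_2 arrays. The arrays were taken by their group label, and they comprised 4 MEKi/CD40 tumours and 5 control tumours of the 18 tumours in the series, with 5 tumours on MEKi plus control antibody and 4 on anti-CD40 plus vehicle set beside them where a result turned on the single drugs. MC38 is a chemically induced C57BL/6 colon carcinoma line. In every group it was injected in a mix of PBS and Matrigel under the skin of the flank of C57BL/6-Ly5.1 mice aged 6 to 12 weeks. GDC-0623 was dosed daily at 30 mg/kg for about 2 weeks in the MEKi/CD40 and MEKi groups and the others received its vehicle, MCT. The antibody, a mouse IgG1 against CD40 or its control, was given into the abdomen on treatment days 3, 5 and 7, with a last dose 1 day before sampling, which was day 22 from inoculation. Each array was hybridised with RNA from a piece of 1 tumour.

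MEK is the kinase that activates ERK, and ERK drives entry into the cell cycle downstream of RAS, and an inhibitor of MEK can reach tumour cells and any stromal or immune cell that uses this pathway. CD40 is a receptor of the tumour necrosis factor family on dendritic cells, macrophages and B cells. Its ligation signals through TRAF adaptors and NF-kB and is known to license dendritic cells to prime T cells. A tumour piece holds cancer cells, fibroblasts, vessels and leukocytes together, and in such bulk RNA fewer cells of a type and less RNA per cell cannot be told apart.

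All values are log2 signal per probe set, 1 probe set standing for each gene, and a difference of 1 is a doubling. A gene was called higher or lower when its Benjamini-Hochberg adjusted p from limma, taken over all 45037 probe sets, was below 0.05. Array medians were 2.84 to 2.95 in MEKi/CD40 tumours and 2.72 to 2.81 in all other tumours, and 53.2 to 54.2% of probe sets, against 54.4 to 55.2%, were at the lower limit of the scale, here called the floor. Upper quartiles were 8.14 to 8.25 over all arrays. The epithelial markers Krt8, Krt18, Krt19 and Epcam were at the floor in every tumour on the probe set standing for each, and E-cadherin (Cdh1) measured 4.35, 5.58, 5.48 and 5.61 in MEKi/CD40 tumours, against 6.30, 6.15, 6.34, 6.58 and 6.89 in controls (adjusted p = 0.035, 0.082 without control 4). A further Epcam set, with the suffix _x_at of sets that may cross-hybridise, read 5.46 to 6.37 in MEKi/CD40 tumours and 5.19 to 5.65 in controls (adjusted p = 0.069). The labelled colon tumour carried little keratin signal in any group, while leukocyte (Ptprc, Csf1r), fibroblast (Pdgfra, Dcn) and endothelial (Pecam1) transcripts were present. The numbers in the array titles fell into a lower and a higher run. All MEKi/CD40 tumours and controls 1 and 2 carried lower numbers, and controls 3 to 5 higher ones. With this run as a block 3860 probe sets were called in place of 6698, and with the lower run alone, which leaves 2 controls, 710.

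The combination changed 6698 probe sets, 14.9% of those tested, of which 2479 were higher and 4219 lower in MEKi/CD40 tumours. At gene level 1392 of 18193 genes (7.65%) were higher and 2188 (12%) lower, and the median log2 difference over all genes was 0.00. Rises were larger than falls in the raw log2 differences: 152 genes rose at least 8-fold and 15 fell as far. The median difference was 0.76 among called rises and -0.56 among called falls. Floor values were not raised to 3 here. The dimmer group touched the floor in at least 137 called rises and at least 16 called falls. For 3973 genes (21.8%) the 4 MEKi/CD40 values and the 5 control values did not overlap. MEKi/CD40 tumours varied more among themselves than controls did. Over the 10314 genes above the floor in all 9 tumours the median SD was 0.203 in MEKi/CD40 tumours and 0.143 in controls, and it was larger in MEKi/CD40 tumours for 69.4% of these genes. Leaving out MEKi/CD40 tumours 2 and 4, which carried the most fat or muscle transcripts, described at the end, gave 3439 called probe sets.

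**Figure D1:**
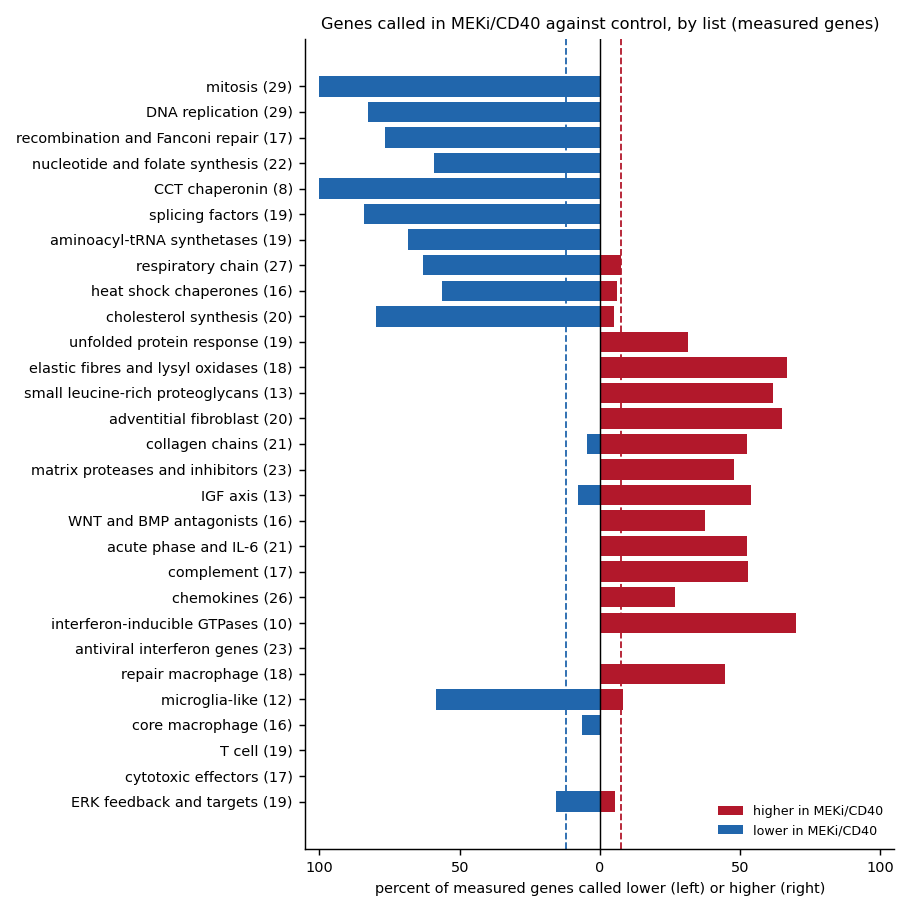
Share of the measured genes of 29 gene lists that were called higher (red, to the right) or lower (blue, to the left) in MEKi/CD40 tumours than in controls, with the number of measured genes in brackets. The 29 were chosen from the 61 lists examined, and several lists with few calls are not shown. Dashed lines mark the shares over all genes, 7.65% higher and 12% lower. All 29 mitosis genes and all 8 CCT chaperonin genes lie on the lower side, and 12 of 18 elastic fibre genes on the higher side.

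A set of 74 genes was above the floor in all 4 MEKi/CD40 tumours and at the floor in all 5 controls, 68 of them called, and 33 of the 74 were at the floor in all MEKi tumours too. Among them Clec3b, which encodes the plasminogen-binding protein tetranectin, measured 8.07, 8.87, 9.38 and 8.43 in MEKi/CD40 tumours, against 2.46, 2.48, 2.46, 2.48 and 2.48 in controls, at least 51.5-fold higher (adjusted p = 0.00017). Tnxb, the matrix protein tenascin-X, measured 7.15, 9.01, 8.72 and 8.02 in MEKi/CD40 tumours, against 2.23, 2.23, 2.23, 2.23 and 2.23 in controls, at least 37.4-fold higher (adjusted p = 0.00037). Apol11b, an apolipoprotein L family gene, measured 7.27, 7.65, 7.59 and 8.73 in MEKi/CD40 tumours, against 2.27, 2.25, 2.27, 2.16 and 2.27 in controls, at least 28.1-fold higher (adjusted p = 0.00023). For all of these genes the lowest MEKi/CD40 tumour was more than 4 log2 units above the highest control. Cyp1b1, a cytochrome P450 enzyme, was at least 24.3-fold higher, with MEKi/CD40 tumour 3 at the top (6.41, 7.21, 10.01 and 6.78). In the other direction 1 gene qualified, the homeobox gene Msx3, at 2.70, 2.70, 2.69 and 2.91 in MEKi/CD40 tumours and 3.85, 3.13, 3.90, 4.64 and 3.97 in controls (adjusted p = 0.028, 0.076 without MEKi/CD40 tumour 1).

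The largest rises among genes above the floor in all 9 tumours included Ccn5, a matricellular protein of the CCN family, at 12.08, 10.58, 10.12 and 11.25 in MEKi/CD40 tumours and 3.95, 3.94, 3.94, 3.94 and 4.62 in controls (6.93 ± 0.39, adjusted p = 0.00032). Of its control values 4 were near-constant and may be background. Ccdc80, a secreted matrix protein of stromal cells, measured 11.13, 12.37, 11.46 and 11.29 in MEKi/CD40 tumours, against 6.22, 5.09, 4.91, 5.19 and 4.92 in controls (6.30 ± 0.36, adjusted p = 0.00032). Among the largest falls was Nptx1, a secreted pentraxin of neurons, at 5.26, 3.40, 3.13 and 4.13 in MEKi/CD40 tumours and 9.95, 9.57, 10.18, 10.19 and 10.44 in controls (-6.09 ± 0.44, adjusted p = 0.00069). The stress-inducible chaperone Hspa1a (-4.16 ± 0.63), the troponin Tnnt2 (-3.89 ± 0.68) and Spint1, an inhibitor of epithelial serine proteases (-3.39 ± 0.55), fell with it. Lack of overlap between the groups was a condition for choosing these largest rises and falls.

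Genes of cell division fell together. All 29 measured mitosis genes were lower in MEKi/CD40 tumours (list median -1.70), and all 29 were also called lower with any 1 tumour left out, 28 without MEKi/CD40 tumours 2 and 4, and 10 within the lower run of title numbers. Prc1, which bundles the microtubules of the central spindle, measured 8.20, 8.07, 8.42 and 8.37 in MEKi/CD40 tumours, against 10.11, 9.97, 10.01, 10.02 and 9.73 in controls, a difference of -1.70 ± 0.10 (SE, adjusted p = 0.00032). Bub1b, a kinase-like protein of the spindle checkpoint, measured 8.84, 8.71, 8.93 and 9.17 in MEKi/CD40 tumours, against 10.40, 10.45, 10.36, 10.09 and 10.18 in controls (-1.38 ± 0.11, adjusted p = 0.00089). Cdc20, the activator of the anaphase-promoting complex, measured 9.77, 9.63, 10.04 and 10.08 in MEKi/CD40 tumours, against 12.01, 11.63, 11.57, 11.57 and 11.32 in controls (-1.74 ± 0.15, adjusted p = 0.0011). The groups stayed apart for each of these genes, and the lowest control exceeded the highest MEKi/CD40 tumour. Kif2c, a kinesin that corrects kinetochore attachments, fell 4.21-fold (7.38, 6.84, 7.34 and 7.81 in MEKi/CD40 tumours, 9.59, 9.64, 9.36, 9.23 and 9.27 in controls). MEKi/CD40 tumour 2 was the lowest of its group for 24 of the 29 genes and tumour 3 the highest for 16. The proliferation marker Mki67 averaged 10.36 ± 0.38 in MEKi/CD40 tumours, 10.90 ± 0.14 in MEKi tumours, 11.36 ± 0.28 in anti-CD40 tumours and 11.54 ± 0.15 in controls (SD).

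Many mitosis genes carry a cell cycle homology region (CHR) near their start site, the element through which the DREAM and MuvB complexes repress them outside division. The bases upstream of 4 called mitosis genes are shown because each holds a CHR, in capitals (TTTGAA or TTCGAA, or TTCAAA, which is TTTGAA read on the other strand). The windows, from RefSeq on GRCm38.p6, were chr7:80294406-80294475 (+ strand) for Prc1, chr2:118597983-118598082 (+) for Bub1b, chr4:118437344-118437401 (- strand) for Cdc20 and chr4:117178816-117178915 (-) for Kif2c, each 5′ to 3′ on the gene's own strand.
Prc1: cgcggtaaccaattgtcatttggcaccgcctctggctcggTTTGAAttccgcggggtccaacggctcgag
Bub1b: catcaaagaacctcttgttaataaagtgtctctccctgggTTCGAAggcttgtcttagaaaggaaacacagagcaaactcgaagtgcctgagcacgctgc
Cdc20: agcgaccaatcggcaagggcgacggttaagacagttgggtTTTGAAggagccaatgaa
Kif2c: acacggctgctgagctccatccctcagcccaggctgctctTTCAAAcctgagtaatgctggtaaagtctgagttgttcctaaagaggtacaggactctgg
Of 22 mitosis genes matched by symbol to the promoter table, 9 (40.9%) held a CHR in the 250 bases before the start site on either strand, beside 19.6% of 27025 genes of the table. A CCAAT box, written CCAAT or ATTGG, was in 17 of the 22 (77.3%), beside 37.5% of all. Such matches describe the letters and do not show that a factor binds there.

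DNA replication genes fell less evenly than mitosis genes. Of 29 measured, 24 were lower and 0 higher (median -1.13). This count was 14 without control 1, without MEKi/CD40 tumour 1 or without MEKi/CD40 tumour 2, and 28 without MEKi/CD40 tumour 3, which was the highest of its group for 23 of the 24 genes. Pola1, the catalytic subunit of DNA polymerase alpha, measured 8.21, 8.48, 8.92 and 8.66 in MEKi/CD40 tumours, against 10.05, 10.20, 10.10, 9.89 and 9.79 in controls (-1.44 ± 0.15, adjusted p = 0.0017). Rfc4, a subunit of the clamp loader, measured 8.49, 8.73, 9.24 and 9.03 in MEKi/CD40 tumours, against 10.39, 10.11, 10.23, 10.39 and 10.14 in controls (-1.38 ± 0.16, adjusted p = 0.0022). Mcm5 of the replicative helicase shows the place of tumour 3, at 8.11, 8.30, 9.80 and 8.82 in MEKi/CD40 tumours and 10.37, 10.28, 10.10, 10.23 and 9.97 in controls (adjusted p = 0.028, 0.076 without MEKi/CD40 tumour 2). Without tumours 2 and 4, 3 replication genes were called lower.

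Repair and chromatin genes that peak with S phase went the same way. Of 17 homologous recombination and Fanconi genes 13 were lower and 0 higher, with 6 to 13 called as each tumour was left out (6 without control 3). Fancd2, the ubiquitinated effector of the Fanconi pathway, measured 4.44, 4.75, 5.17 and 5.12 in MEKi/CD40 tumours, against 7.04, 7.01, 6.66, 6.86 and 6.45 in controls (-1.93 ± 0.19, adjusted p = 0.0015). Palb2, the partner that brings BRCA2 to breaks, fell by 2.55-fold (adjusted p = 0.0032). Ezh2, the methyltransferase of Polycomb complex 2, measured 9.33, 9.58, 9.91 and 9.62 in MEKi/CD40 tumours, against 10.79, 10.73, 10.59, 10.63 and 10.70 in controls (-1.08 ± 0.11, adjusted p = 0.0016), and its partner Suz12 was lower too (-0.78 ± 0.10, adjusted p = 0.0029). In that list of 17 chromatin genes 10 were lower and 2 higher, and 5 were lower without any 1 of controls 1 to 4 or without MEKi/CD40 tumour 1, 2 or 4. The de novo DNA methyltransferase Dnmt3a was 1 of the higher genes (0.52 ± 0.10, adjusted p = 0.014). Of its 5 probe sets 1 was called, over differences of -0.368 to 0.999. The call was lost with the mean of its probe sets, without MEKi/CD40 tumours 2 and 4, and with the run of title numbers as a block. Among G1 regulators 6 of 21 were lower and 3 higher. Cdk2 measured 9.02, 9.22, 9.27 and 9.25 in MEKi/CD40 tumours, against 9.85, 9.82, 9.71, 9.86 and 9.72 in controls (-0.60 ± 0.06, adjusted p = 0.0016), whereas the D-type cyclin Ccnd3 was among the higher genes, of which 0 to 2 were called as each tumour was left out (0.33 ± 0.07, adjusted p = 0.021, 0.054 without control 2). The CDK inhibitor Cdkn1a differed by 0.01 (adjusted p = 1.0).

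Genes that supply growing cells were lower by smaller amounts. All 8 subunits of the CCT chaperonin, the ring that folds actin and tubulin, were lower (median -0.53), and at least 7 of the 8 were called lower with any 1 tumour left out. Cct8 measured 12.74, 12.69, 12.85 and 12.83 in MEKi/CD40 tumours, against 13.59, 13.45, 13.49, 13.38 and 13.31 in controls (-0.67 ± 0.06, adjusted p = 0.0013). Cct2 measured 13.89, 13.96, 14.16 and 14.06 in MEKi/CD40 tumours, against 14.74, 14.61, 14.65, 14.67 and 14.49 in controls (-0.61 ± 0.07, adjusted p = 0.0020). These are falls of well under 2-fold with no overlap. Of 19 splicing factors 16 were lower and 0 higher (median -0.44; 9 without MEKi/CD40 tumour 1), led by Sf3a3 of the U2 particle (-0.67 ± 0.08, adjusted p = 0.0022). Of 19 aminoacyl-tRNA synthetases 13 were lower and 0 higher (median -0.39), with Lars, which charges leucine tRNA, at -0.60 ± 0.07 (adjusted p = 0.0023). Of 22 genes of nucleotide and folate synthesis 13 were lower and 0 higher (median -0.71). Paics, of purine synthesis, measured 12.84, 12.85, 12.93 and 12.88 in MEKi/CD40 tumours, against 13.40, 13.32, 13.32, 13.27 and 13.30 in controls (-0.45 ± 0.03, adjusted p = 0.00053), and the mitochondrial folate enzymes Shmt2 (-1.24 ± 0.18) and Mthfd2 (-0.99 ± 0.16) were also lower. In the respiratory chain 17 of 27 genes were lower and 2 higher (median -0.31), and cytochrome c (Cycs) was 1.46-fold lower (adjusted p = 0.0025). Fewer of these genes were called without MEKi/CD40 tumours 2 and 4: 5 CCT subunits, 6 splicing factors, 5 synthetases and 4 nucleotide genes.

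Amino acid and protein stress genes did not move as a block. Of 23 genes of the ATF4 response 5 were lower and 1 higher. Psat1, of serine synthesis, measured 11.25, 11.47, 11.79 and 11.51 in MEKi/CD40 tumours, against 12.69, 12.59, 12.54, 12.71 and 12.36 in controls (-1.07 ± 0.12, adjusted p = 0.0019). Asns, asparagine synthetase, was 1.98-fold lower (adjusted p = 0.0052) and the leucine transporter Slc7a5 1.93-fold lower (adjusted p = 0.0086). Of 16 heat shock chaperones 9 were lower and 1 higher. Hspa4l, a nucleotide exchange factor for HSP70, measured 9.58, 9.50, 8.94 and 9.69 in MEKi/CD40 tumours, against 10.92, 10.96, 10.97, 10.79 and 10.97 in controls (-1.49 ± 0.15, adjusted p = 0.0015). The higher member was the small chaperone Cryab, at 10.70, 10.42, 10.20 and 10.20 in MEKi/CD40 tumours and 6.16, 6.51, 7.61, 8.08 and 7.97 in controls (3.11 ± 0.45, adjusted p = 0.0045). In the endoplasmic reticulum 6 of 19 genes of the unfolded protein response were higher and 0 lower, all by less than 2-fold. Sel1l, the adaptor of a degradation ligase, was 1.59-fold higher (adjusted p = 0.0024) and the stress sensor Atf6 1.47-fold higher (adjusted p = 0.0028), while the chaperone Hspa5 differed by 0.13 (adjusted p = 0.12).

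Cholesterol synthesis and mitosis had the lowest median differences of the 61 gene lists examined, with genes at the floor in both groups counted. Without such genes the microglia-like list described below was lower, at -2.16. Of 20 measured genes of synthesis and uptake 16 were lower and 1 higher (median -1.76, or -1.72 with genes at the floor at their bound), and 13 to 18 were called lower as each tumour was left out. Cells make cholesterol from acetyl-CoA through mevalonate, farnesyl pyrophosphate, squalene and lanosterol, and SREBP2 (Srebf2) activates the genes when sterol is low. Hmgcs1, which makes HMG-CoA at the start, measured 10.72, 12.06, 10.37 and 11.35 in MEKi/CD40 tumours, against 12.64, 12.49, 13.08, 13.37 and 12.37 in controls (-1.67 ± 0.38, adjusted p = 0.026, 0.075 without MEKi/CD40 tumour 1). Idi1, the isopentenyl pyrophosphate isomerase, measured 6.60, 8.94, 6.46 and 8.61 in MEKi/CD40 tumours, against 11.51, 11.05, 11.36, 12.04 and 10.63 in controls (-3.67 ± 0.62, adjusted p = 0.0083). Fdps, farnesyl pyrophosphate synthase, measured 9.10, 10.79, 8.81 and 11.04 in MEKi/CD40 tumours, against 13.39, 12.90, 13.35, 13.86 and 12.82 in controls (-3.33 ± 0.53, adjusted p = 0.0069). The groups did not overlap, but within the MEKi/CD40 group tumours 2 and 4 lay well above tumours 1 and 3. Of the squalene steps, Fdft1 differed by -2.54 ± 0.42 and Sqle, the monooxygenase that is a rate-controlling step, by -2.61 ± 0.43. Msmo1, which removes methyl groups from lanosterol derivatives, measured 8.10, 9.33, 8.34 and 9.44 in MEKi/CD40 tumours, against 11.73, 11.51, 11.90, 12.45 and 11.50 in controls (-3.02 ± 0.35, adjusted p = 0.0023). Srebf2 itself measured 6.79, 7.85, 6.66 and 7.90 in MEKi/CD40 tumours, against 8.69, 8.79, 8.89, 9.32 and 8.73 in controls (-1.58 ± 0.31, adjusted p = 0.015). The higher gene was the sterol isomerase Ebp, by 0.20 ± 0.02 (adjusted p = 0.0016), and Insig1, which holds SREBP in the endoplasmic reticulum, differed by -1.64 (adjusted p = 0.12, and 0.023 without MEKi/CD40 tumour 2).

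**Figure D2:**
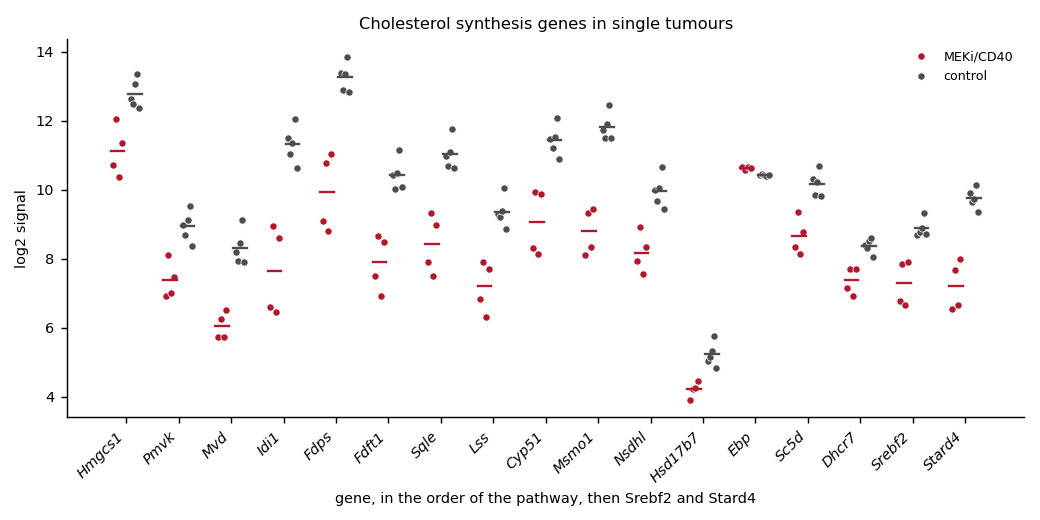
Log2 signal of 17 cholesterol genes, Hmgcs1 to Dhcr7 in pathway order followed by the regulator Srebf2 and the sterol carrier Stard4, 1 point per tumour, with MEKi/CD40 tumours (n = 4) left of controls (n = 5) for each gene and a line at each group mean. All genes but Ebp lie lower in MEKi/CD40 tumours, and the MEKi/CD40 points split into a pair of higher and a pair of lower tumours for most genes.

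The split within the group recurred along the pathway. Tumours 2 and 4 were both above tumours 1 and 3 for 15 of the 16 lowered cholesterol genes and for all 5 lowered genes of fatty acid synthesis. Fads2, a desaturase of polyunsaturated fatty acids, measured 7.04, 8.57, 6.36 and 8.53 in MEKi/CD40 tumours, against 11.01, 10.74, 10.89, 11.34 and 10.28 in controls (-3.23 ± 0.51, adjusted p = 0.0066). Fads1 was 3.35-fold lower (adjusted p = 0.0097), and the synthase Fasn differed by -0.26 (adjusted p = 0.88, and 0.043 without MEKi/CD40 tumour 2). Tumours 2 and 4 were also those with the highest mean over 14 adipocyte markers, at 4.03, 9.86, 5.08 and 6.17 in MEKi/CD40 tumours 1 to 4, against 3.62 to 4.10 in controls, and its part in the cholesterol result was not tested. Without these 2 tumours 16 cholesterol genes were called lower, and 17 with the adipocyte mean as a covariate. With the run of title numbers as a block 4 were called lower. Within the lower run of title numbers, with 2 controls, limma called 0 of the 20, and 17 had an unadjusted p below 0.05.

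The 250 bases before the start site of genes of this pathway were searched for a CCAAT box, the site of NF-Y, which acts with SREBP2, and for a sterol regulatory element, spelled TCACNCCAC or GTGGNGTGA. Shown are the sequences upstream of 4 called genes, chosen because they hold a match, with each match in capitals: a CCAAT box and the sterol element for Hmgcs1 (chr13:119690174-119690273, + strand), and CCAAT boxes on either strand for Msmo1 (chr8:64733579-64733674, - strand), Mvd (chr8:122443423-122443489, -) and Idi1 (chr13:8885552-8885605, +), RefSeq, GRCm38.p6.
Hmgcs1: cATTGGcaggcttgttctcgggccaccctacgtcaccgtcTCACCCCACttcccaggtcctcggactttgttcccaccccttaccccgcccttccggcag
Msmo1: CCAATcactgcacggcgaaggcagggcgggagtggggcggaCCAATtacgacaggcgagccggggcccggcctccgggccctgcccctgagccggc
Mvd: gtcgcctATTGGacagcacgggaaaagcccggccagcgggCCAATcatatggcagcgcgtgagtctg
Idi1: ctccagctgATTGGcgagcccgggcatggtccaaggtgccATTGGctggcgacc
All 16 matched cholesterol genes (100%) held a CCAAT box, beside 37.5% of the 27025 genes, and 1 of 16 (6.25%) held the sterol element, beside 1.22%.

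Genes of ERK feedback and of growth factor receptors were called in both directions. Of 19 ERK feedback and target genes 3 were lower and 1 higher, shares near those of all genes (12% lower, 7.65% higher), with 1 lower without MEKi/CD40 tumour 2 and 6 without MEKi/CD40 tumour 3. Etv5, a PEA3 transcription factor induced by ERK, measured 8.39, 8.85, 9.70 and 9.89 in MEKi/CD40 tumours, against 10.52, 11.01, 10.60, 10.77 and 10.72 in controls (-1.52 ± 0.32, adjusted p = 0.019, 0.055 without MEKi/CD40 tumour 2). Dusp4, a phosphatase induced by ERK, was 1.84-fold lower (adjusted p = 0.013), and the feedback inhibitor Spry2 1.71-fold higher (adjusted p = 0.019, 0.051 without MEKi/CD40 tumour 1). Dusp6, the ERK phosphatase, measured 10.33, 11.09, 12.26 and 11.82 in MEKi/CD40 tumours, against 12.81, 12.79, 12.69, 12.39 and 12.59 in controls and was not called (adjusted p = 0.063, and 0.020 without MEKi/CD40 tumour 3), with all 4 MEKi/CD40 tumours below every control. The ERK targets, Etv4 (-0.64, adjusted p = 0.14) and Spry4 (-0.43, adjusted p = 0.52), were not called either. The EGF receptor (Egfr) rose, at 9.66, 9.99, 10.09 and 9.92 in MEKi/CD40 tumours and 8.65, 8.93, 8.94, 8.79 and 8.54 in controls (1.15 ± 0.12, adjusted p = 0.0016), with the ligand neuregulin (Nrg1, 1.54 ± 0.30), while the receptor Erbb3 was lower (-1.40 ± 0.35, adjusted p = 0.037, 0.090 without control 3).

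Genes of the extracellular matrix rose in several lists. Elastic fibres are built from elastin on a scaffold of fibrillins, fibulins and microfibril proteins, and lysyl oxidases crosslink them and collagen. Of 18 measured genes of this group 12 were higher and 0 lower (median 2.93), and 12 to 13 were called with any 1 tumour left out. Mfap5, a microfibril protein, measured 10.83, 11.50, 11.03 and 10.46 in MEKi/CD40 tumours, against 4.90, 4.61, 4.97, 4.97 and 5.24 in controls (6.02 ± 0.22, adjusted p = 0.00015). Lox, lysyl oxidase, measured 10.64, 11.84, 11.85 and 9.96 in MEKi/CD40 tumours, against 6.85, 6.25, 6.38, 8.08 and 6.86 in controls (4.19 ± 0.54, adjusted p = 0.0031), and its relative Loxl1 10.44, 10.79, 10.34 and 10.15, against 5.05, 6.65, 6.83, 5.81 and 7.18 (4.13 ± 0.44). In each case all MEKi/CD40 tumours were above all controls. Fibulins Fbln2 (5.43 ± 0.69) and Fbln5 (3.70 ± 0.50) and fibrillin Fbn2 (4.41 ± 0.69) were higher as well. Elastin itself (Eln) was uneven, at 4.84, 8.41, 5.80 and 7.07 in MEKi/CD40 tumours and 3.27, 3.15, 3.21, 3.21 and 3.18 in controls (adjusted p = 0.016).

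Among 21 collagen chains 11 were higher and 1 lower (median 0.54). Col1a1, the main chain of collagen I, measured 14.00, 13.90, 13.68 and 13.56 in MEKi/CD40 tumours, against 7.50, 9.67, 8.58, 8.05 and 8.90 in controls, 37.9-fold higher (5.25 ± 0.42, adjusted p = 0.00086). Col12a1, which decorates collagen I fibrils, measured 11.90, 12.15, 12.14 and 10.94 in MEKi/CD40 tumours, against 7.07, 7.35, 6.94, 8.14 and 7.18 in controls (4.45 ± 0.34, adjusted p = 0.00078). Collagen III, near the top of the array's scale in every tumour, differed by less (Col3a1, 15.57 to 15.71 in MEKi/CD40 tumours and 14.96 to 15.20 in controls, 0.54 ± 0.05, adjusted p = 0.0015). The basement membrane chain Col18a1, the source of endostatin, was lower, at 9.93, 8.75, 8.87 and 8.72 in MEKi/CD40 tumours and 11.20, 10.35, 10.70, 10.09 and 10.52 in controls (adjusted p = 0.020, 0.060 without MEKi/CD40 tumour 2). The collagen IV chains Col4a1 (0.18, adjusted p = 0.38) and Col4a2 (0.43, adjusted p = 0.058, and 0.033 without MEKi/CD40 tumour 3) were not called.

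Small leucine-rich proteoglycans bind collagen fibrils and set their spacing. Of 13 genes 8 were higher and 0 lower, with a median of 2.44, or 1.72 with genes at the floor set at their bound. Prelp had the smallest adjusted p of any gene, at 9.49, 9.84, 9.46 and 9.60 in MEKi/CD40 tumours and 3.08, 3.02, 3.05, 3.05 and 3.41 in controls (6.48 ± 0.11, adjusted p = 1.8e-06). Its control values sat just above the floor and may be background. Lum, lumican, measured 9.97, 10.84, 11.90 and 10.08 in MEKi/CD40 tumours, against 4.38, 4.46, 4.29, 5.35 and 4.21 in controls (6.16 ± 0.44, adjusted p = 0.00069), and Bgn, biglycan, 12.29, 12.79, 13.51 and 12.41, against 9.02, 9.15, 9.20, 9.16 and 9.45 (3.55 ± 0.25). Omd, osteomodulin, measured 11.45, 10.79, 7.86 and 10.71 in MEKi/CD40 tumours, against 4.09, 6.20, 5.04, 5.79 and 6.17 in controls (adjusted p = 0.0089), and here tumour 3 was the lowest of its group. Markers of adventitial fibroblasts, the stromal cells around vessels, followed, with 13 of 20 higher and 0 lower (median 1.74). Dpp4, a dipeptidase on such cells, measured 5.89, 6.92, 7.31 and 5.56 in MEKi/CD40 tumours, against 3.65, 3.00, 3.33, 2.98 and 3.65 in controls (3.10 ± 0.39, adjusted p = 0.0030), and Pcolce2, an enhancer of procollagen processing, was at least 14.9-fold higher (adjusted p = 0.00078). Without MEKi/CD40 tumours 2 and 4, 10 elastic fibre, 7 collagen, 4 proteoglycan and 7 adventitial genes were called higher, and 5, 2, 4 and 5 within the lower run of title numbers.

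**Figure D3:**
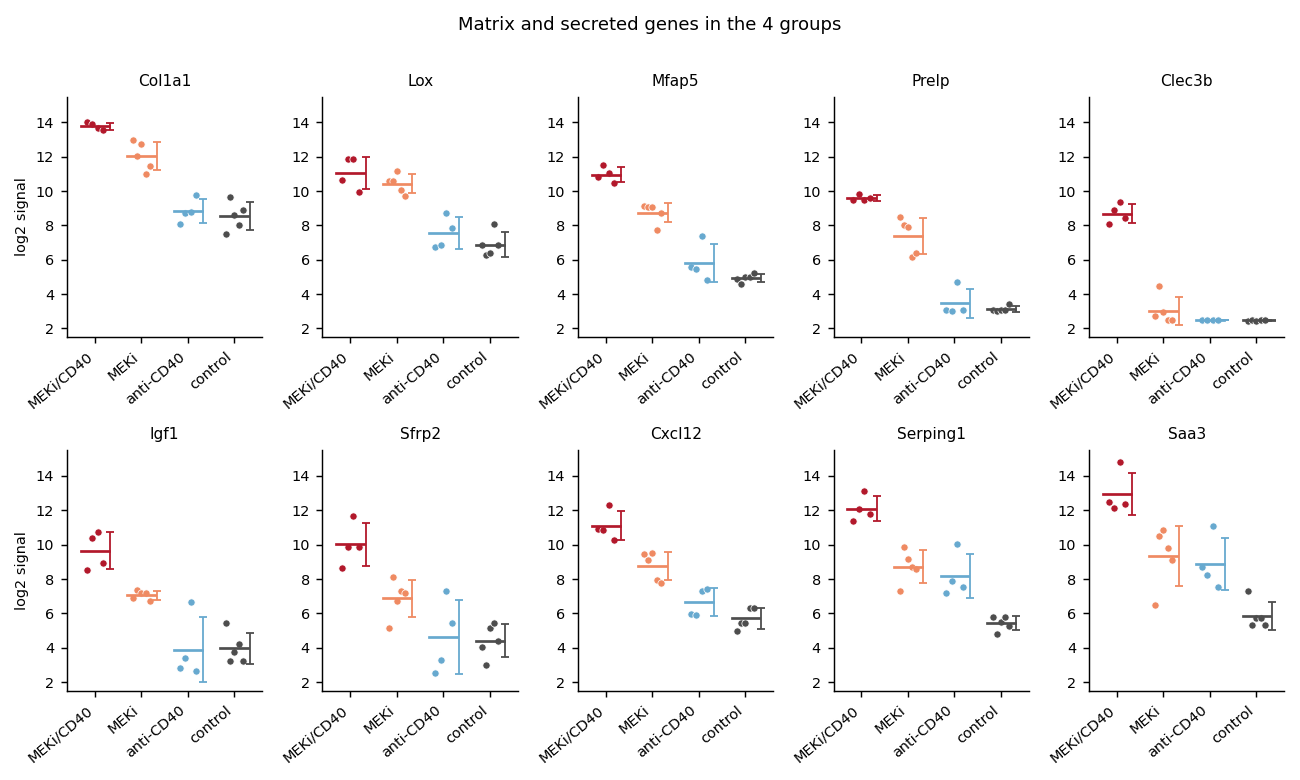
Log2 signal of 10 matrix and secreted genes in MEKi/CD40 (n = 4), MEKi (n = 5), anti-CD40 (n = 4) and control tumours (n = 5), 1 point per tumour, with a horizontal line at the mean and a bar of 1 SD. MEKi/CD40 tumours lie above all controls for every gene, and MEKi tumours lie between for most.

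Proteases that cut the matrix and their inhibitors rose side by side, with 11 of 23 higher and 0 lower (median 1.15). Adamts5, an aggrecanase, measured 10.28, 10.74, 10.21 and 9.83 in MEKi/CD40 tumours, against 7.36, 7.16, 7.37, 7.60 and 7.23 in controls (2.92 ± 0.18, adjusted p = 0.00043). Timp3, an inhibitor of such enzymes that is bound to the matrix, measured 10.48, 10.89, 9.76 and 9.87 in MEKi/CD40 tumours, against 4.04, 5.90, 5.21, 5.65 and 6.45 in controls (4.80 ± 0.50, adjusted p = 0.0017). The macrophage elastase Mmp12 measured 10.23, 10.56, 13.72 and 9.02 in MEKi/CD40 tumours, against 7.12, 6.68, 5.74, 5.14 and 6.53 in controls (4.64 ± 0.94, adjusted p = 0.017), and tumour 3 stood far above the rest. Stromelysin (Mmp3) showed the same tumour on top, at 10.10, 10.32, 13.36 and 9.67 in MEKi/CD40 tumours and 6.67, 5.85, 5.80, 7.50 and 9.13 in controls (adjusted p = 0.040, 0.094 without control 3). The gelatinase Mmp9 was not called (-0.91, adjusted p = 0.12).

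Contractile and TGF-beta genes gave fewer calls. Of 20 contractile and pericyte genes 7 were higher and 1 lower. Smooth muscle actin (Acta2), the myofibroblast marker, measured 11.66, 10.75, 12.65 and 11.57 in MEKi/CD40 tumours, against 9.56, 8.77, 8.83, 9.17 and 8.82 in controls (2.63 ± 0.37, adjusted p = 0.0044), while the pericyte gene Rgs5 differed by -0.43 (adjusted p = 0.73). Of 16 TGF-beta genes 7 were higher and 1 lower, with 4 higher without control 1, without MEKi/CD40 tumour 2 or without MEKi/CD40 tumour 4. Ccn2, a matricellular target of TGF-beta and YAP, measured 11.61, 11.57, 11.27 and 11.51 in MEKi/CD40 tumours, against 9.37, 9.05, 9.59, 8.94 and 9.10 in controls (2.28 ± 0.15, adjusted p = 0.00051). Tgfbr2, the ligand-binding receptor, was 1.84-fold higher (adjusted p = 0.00053), and the inhibitor Smad7 was the lower member (-0.76 ± 0.15, adjusted p = 0.014). The ligand Tgfb1 differed by -0.40 (adjusted p = 0.30).

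Secreted growth factors and antagonists were also higher. In the IGF axis 7 of 13 genes were higher and 1 lower (median 0.98). Igf1, the growth factor, measured 8.54, 10.38, 10.72 and 8.93 in MEKi/CD40 tumours, against 5.42, 3.24, 3.75, 4.21 and 3.25 in controls (5.67 ± 0.64, adjusted p = 0.0021), with tumours 2 and 3 highest. Binding proteins split: Igfbp5 measured 9.64, 11.33, 10.51 and 9.25 in MEKi/CD40 tumours, against 5.64, 5.71, 7.40, 5.26 and 5.65 in controls (4.25 ± 0.58), and Igfbp7 rose by 1.91 ± 0.20, but Igfbp3 was lower (-1.54 ± 0.35, adjusted p = 0.024, 0.068 without MEKi/CD40 tumour 2). Of 16 secreted antagonists of WNT and BMP 6 were higher and 0 lower (median 1.77, or 1.4 with genes at the floor at their bound). Sfrp2, which binds WNT, measured 8.66, 9.84, 11.67 and 9.87 in MEKi/CD40 tumours, against 4.06, 3.01, 5.16, 5.42 and 4.37 in controls (5.61 ± 0.71, adjusted p = 0.0030). Chrdl1, a BMP antagonist, was at least 13.6-fold higher (adjusted p = 0.0023). Among 13 WNT target genes 0 were higher and 2 lower, a share near the 12% of all genes. Of the 13, 8 were at the floor in both groups, and without them the median was 0.775. The transcription factor Sox9 was among the lower ones, at 9.02, 8.53, 9.13 and 9.09 in MEKi/CD40 tumours and 9.97, 10.52, 10.37, 10.28 and 10.58 in controls (-1.40 ± 0.17, adjusted p = 0.0025).

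Acute phase and IL-6 genes were higher for 11 of 21 and lower for 0 (median 1.15), with 9 to 11 called as each tumour was left out and 6 without MEKi/CD40 tumours 2 and 4. IL-6 and its relatives act through the shared receptor gp130, JAK kinases and STAT3. The receptors rose evenly: Il6st, which encodes gp130, measured 11.65, 11.62, 11.58 and 11.48 in MEKi/CD40 tumours, against 10.26, 10.29, 10.50, 10.60 and 10.49 in controls (1.15 ± 0.08, adjusted p = 0.00062), and Osmr, the oncostatin M receptor, 11.76, 11.49, 11.69 and 11.74, against 8.84, 9.68, 9.24, 9.68 and 9.72 (2.24 ± 0.20). The transcription factor Stat3 was 1.62-fold higher (adjusted p = 0.012). Il6 itself was low and uneven, at 6.61, 5.65, 7.71 and 5.60 in MEKi/CD40 tumours and 3.43, 4.54, 3.28, 2.94 and 4.66 in controls (adjusted p = 0.022, 0.064 without MEKi/CD40 tumour 1), and the feedback inhibitor Socs3 was not called (adjusted p = 0.28). Lbp, which presents lipopolysaccharide to CD14, measured 9.24, 9.51, 11.51 and 9.56 in MEKi/CD40 tumours, against 3.98, 4.02, 4.00, 4.02 and 4.02 in controls (5.95 ± 0.45, adjusted p = 0.00077), with near-constant control values that may be background. The serum amyloid gene Saa3 was 135-fold higher (adjusted p = 0.0013), with tumour 3 on top.

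Complement genes were higher for 9 of 17 and lower for 0, the same number with any 1 tumour left out. C2, a protease of the classical pathway convertase, measured 7.69, 8.89, 10.29 and 8.58 in MEKi/CD40 tumours, against 4.28, 4.47, 4.28, 4.36 and 4.39 in controls (4.51 ± 0.46, adjusted p = 0.0016). The C1 proteases C1ra (2.81 ± 0.37) and C1s1 (3.95 ± 0.78) rose, whereas the C1q chains, made by macrophages, were not called (C1qa -0.34, C1qb -0.22 and C1qc -0.50, adjusted p of 0.18, 0.56 and 0.12). Regulators rose with the proteases. The C1 inhibitor Serping1 measured 11.40, 12.06, 13.15 and 11.81 in MEKi/CD40 tumours, against 5.79, 4.82, 5.50, 5.77 and 5.26 in controls (6.68 ± 0.38, adjusted p = 0.00032), and Cd55, which dissolves convertases, was at least 13.5-fold higher (adjusted p = 0.00074).

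Chemokine ligands were higher for 7 of 26 and lower for 0, and MEKi/CD40 tumour 3 was the highest of its group for all 7. Cxcl12, the stromal ligand of CXCR4, measured 10.93, 10.88, 12.29 and 10.29 in MEKi/CD40 tumours, against 4.97, 5.42, 5.46, 6.34 and 6.32 in controls (5.40 ± 0.47, adjusted p = 0.0011). Ccl11, the eosinophil attractant eotaxin, measured 7.59, 8.21, 9.99 and 7.36 in MEKi/CD40 tumours, against 2.99, 2.26, 2.36, 2.43 and 2.36 in controls, at least 39.1-fold higher (adjusted p = 0.0012). The neutrophil attractant Cxcl1 measured 12.19, 11.57, 12.43 and 11.09 in MEKi/CD40 tumours, against 8.34, 8.75, 7.98, 8.37 and 8.59 in controls (3.41 ± 0.30, adjusted p = 0.0011). Ccl6, made by myeloid cells in the mouse, rose by 3.32 ± 0.39 (adjusted p = 0.0024). The monocyte attractant Ccl2 differed by -0.42 (adjusted p = 0.60) and the T cell attractant Cxcl9 by 1.44 (adjusted p = 0.13). A further Cxcl9 probe set, of lower signal, was called, at 10.32, 9.78, 12.04 and 10.82 in MEKi/CD40 tumours and 7.30, 9.02, 8.27, 8.97 and 9.42 in controls (2.14 ± 0.58, adjusted p = 0.049). The neutrophil genes S100a8 (5.59 ± 0.61, adjusted p = 0.0019) and S100a9 (at least 19.2-fold) were higher, while the neutrophil granule genes Ngp, Ltf, Camp, Elane and Mpo were at the floor in both groups.

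Macrophage genes diverged by programme. The core macrophage list gave 0 higher and 1 lower of 16 genes, the CSF1 receptor Csf1r at 11.86, 11.96, 12.69 and 12.29 in MEKi/CD40 tumours and 13.11, 13.05, 12.75, 12.66 and 12.99 in controls (-0.71 ± 0.19, adjusted p = 0.044). That call was lost with any 1 tumour left out except MEKi/CD40 tumour 3 (0.12 without MEKi/CD40 tumour 2), and without tumour 3 limma called 5 core genes lower. Markers of resident, repair-type macrophages were higher for 8 of 18 and lower for 0 (median 1.72, or 1.64 with floor genes at their bound), and 6 to 8 were called as each tumour was left out, 4 without MEKi/CD40 tumours 2 and 4, and by limma 0 within the lower run of title numbers, where 6 had an unadjusted p below 0.05. Cd163, the haemoglobin scavenger receptor, measured 5.06, 7.32, 8.97 and 7.73 in MEKi/CD40 tumours, against 2.24, 2.23, 2.16, 2.23 and 2.16 in controls, at least 19.3-fold higher (adjusted p = 0.0040). Lyve1, a hyaluronan receptor on perivascular macrophages and lymphatic vessels, measured 6.19, 8.59, 6.33 and 8.09 in MEKi/CD40 tumours, against 2.25, 2.16, 2.17, 2.16 and 2.22 in controls, at least 19.7-fold higher (adjusted p = 0.0016). Gas6, which bridges dying cells to TAM receptors, measured 8.64, 9.56, 11.20 and 10.29 in MEKi/CD40 tumours, against 7.86, 6.47, 6.92, 7.05 and 7.04 in controls (2.85 ± 0.53, adjusted p = 0.012). Tumour 1 was the lowest of its group for all 8 of these genes. The mannose receptor Mrc1 (8.43, 8.36, 11.15 and 9.39 in MEKi/CD40 tumours, 11.00, 9.65, 9.58, 10.65 and 9.76 in controls, adjusted p = 0.60) and Arg1 (0.76, adjusted p = 0.60) were not called.

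A set of genes known from microglia, and shared by some tissue macrophages, went the other way, with 7 of 12 lower and 1 higher. The median was -0.82, or -2.16 without the 3 genes at the floor in both groups. Without control 3, control 5 or MEKi/CD40 tumour 2, 4 were called lower. Fcrls, a scavenger receptor-like protein, measured 7.24, 7.39, 6.32 and 8.54 in MEKi/CD40 tumours, against 12.06, 11.42, 11.54, 11.19 and 11.08 in controls (-4.09 ± 0.43, adjusted p = 0.0018). P2ry12, the ADP receptor, measured 3.15, 3.80, 3.73 and 5.49 in MEKi/CD40 tumours, against 8.56, 7.90, 7.14, 7.62 and 6.79 in controls (-3.56 ± 0.55, adjusted p = 0.0060). Gpr34 (-3.11 ± 0.47) and P2ry13 (-2.72 ± 0.41) fell alongside, and the fractalkine receptor Cx3cr1 measured 8.08, 8.63, 6.83 and 9.70 in MEKi/CD40 tumours, against 10.67, 10.53, 10.36, 10.24 and 10.53 in controls (adjusted p = 0.031, 0.086 without MEKi/CD40 tumour 1). Groups did not overlap for these genes, and tumour 4 kept the highest level. The higher member was Sparc, which fibroblasts also make (0.85 ± 0.06, adjusted p = 0.00067). Sall1, the transcription factor that defines microglia, and Siglech were at the floor in both groups. Lipid handling genes were higher for 6 of 18, with 2 called without control 2, 3 or 4 and 1 without MEKi/CD40 tumours 2 and 4. Lipoprotein lipase (Lpl), also an adipocyte gene, measured 9.30, 13.84, 12.99 and 10.71 in MEKi/CD40 tumours, against 7.10, 8.11, 6.71, 6.73 and 6.48 in controls (4.68 ± 0.95, adjusted p = 0.016).

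**Figure D4:**
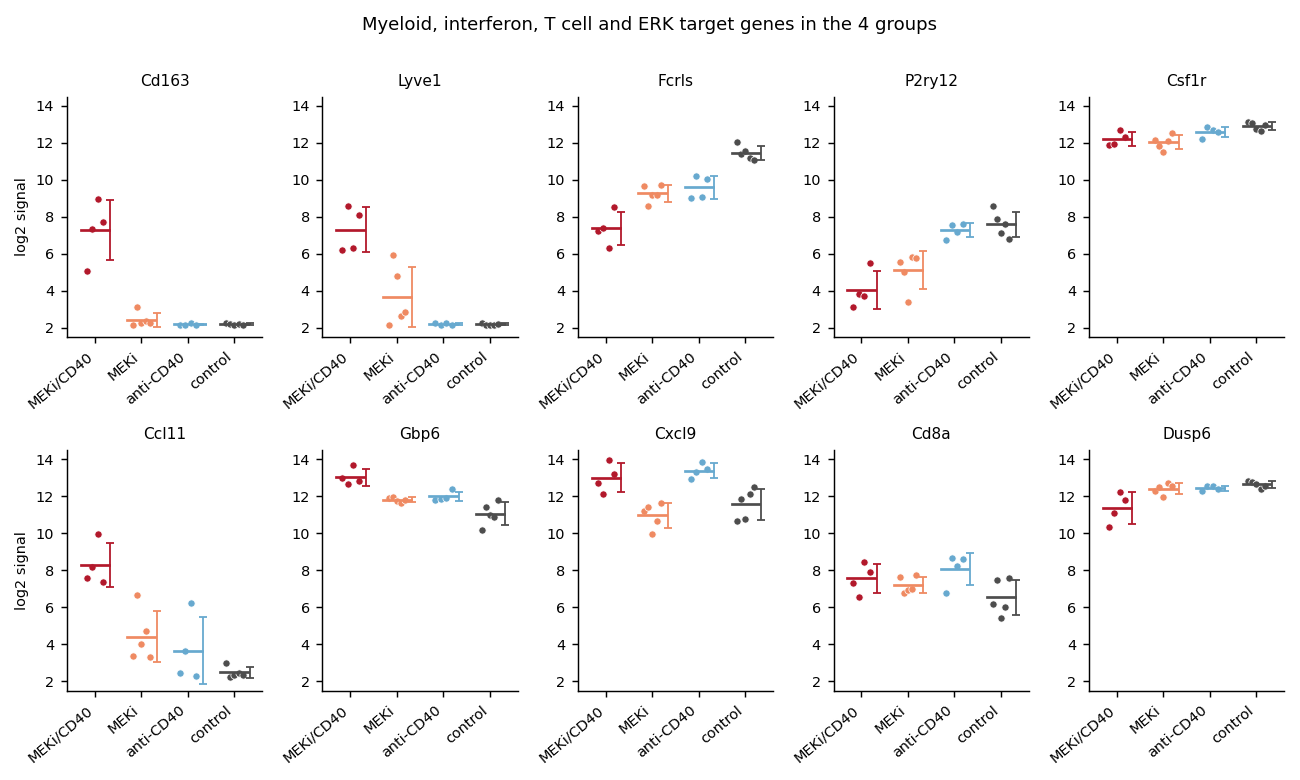
Log2 signal of 10 genes of macrophages, chemokines, interferon response, T cells and ERK signalling in MEKi/CD40 (n = 4), MEKi (n = 5), anti-CD40 (n = 4) and control tumours (n = 5), 1 point per tumour, with a line at the mean and a bar of 1 SD. Cd163, Lyve1, Ccl11 and Gbp6 lie above all controls in MEKi/CD40 tumours and Fcrls, P2ry12 and Dusp6 below, while Cd8a overlaps between the groups.

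Interferon-inducible genes gave calls for the GTPases and not for the antiviral list. Of 10 interferon-inducible GTPases, which attack vacuoles that hold pathogens, 7 were higher and 0 lower (median 0.98), but 2 were called without control 3 or without MEKi/CD40 tumour 4 and 0 without tumours 2 and 4, where 9 had an unadjusted p below 0.05. Gbp6 measured 13.01, 12.66, 13.70 and 12.82 in MEKi/CD40 tumours, against 10.18, 11.45, 11.00, 10.91 and 11.81 in controls (1.98 ± 0.36, adjusted p = 0.011). Irgm2 measured 12.50, 12.06, 12.94 and 12.47 in MEKi/CD40 tumours, against 10.61, 11.60, 10.95, 10.96 and 11.56 in controls (1.36 ± 0.26, adjusted p = 0.014). Tumour 3 was the highest and tumour 2 the lowest of the group for all 7. Of 23 antiviral interferon genes limma called 0, with 3 at an unadjusted p below 0.05, and Oas2, an RNA sensor of that list, measured 9.52, 10.02, 9.78 and 9.41 in MEKi/CD40 tumours, against 7.44, 9.28, 8.64, 8.03 and 8.59 in controls (adjusted p = 0.056, and 0.028 without control 2). Antigen presentation moved little. Of 16 genes of MHC class I processing 3 were higher, beside 7.65% higher over all genes, with 1 to 3 called as each tumour was left out. The class I light chain B2m was 1.11-fold higher (adjusted p = 0.022, 0.065 without MEKi/CD40 tumour 1). Of 11 MHC class II genes 0 were higher and 2 lower, beside 12% lower over all genes, and 0 or 1 were called lower with any 1 tumour left out.

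By limma, 0 of 19 T cell genes were called, with 4 at an unadjusted p below 0.05 (median 0.68, or 0.61 with floor genes at their bound), and 0 of 17 cytotoxic effector genes, with 3 (median -0.02). The mean over the T cell genes was 5.08, 4.82, 6.04 and 5.17 in MEKi/CD40 tumours and 4.25, 4.82, 4.24, 4.19 and 5.15 in controls, and the groups overlapped. With 1 tumour left out at most 2 T cell genes and 1 cytotoxic gene were called higher. Cd8a measured 7.32, 6.58, 8.43 and 7.94 in MEKi/CD40 tumours, against 6.20, 7.47, 5.45, 6.00 and 7.58 in controls (1.03, adjusted p = 0.36), and Ifng 5.53, 4.36, 7.71 and 6.03, against 3.31, 5.49, 4.18, 4.23 and 5.39 (adjusted p = 0.34). The regulatory T cell factor Foxp3 was at the floor in both groups. Gzmb, a granzyme of killer cells, differed by -0.73 ± 0.59 (adjusted p = 0.60). Controls alone ranged from 7.25 to 10.15 for Gzmb, and a difference of this size was not detectable. Of 17 checkpoint genes 2 were higher and 0 lower, beside 7.65% higher over all genes. As each tumour was left out 1 to 2 were called higher. The higher genes were the ligand Cd276 (6.94, 6.75, 7.58 and 6.55 in MEKi/CD40 tumours, 5.79, 5.51, 5.67, 5.61 and 5.44 in controls, adjusted p = 0.0053) and the costimulatory receptor Tnfrsf9 (2.22 ± 0.51, adjusted p = 0.027, 0.077 without MEKi/CD40 tumour 2). Cd274, which encodes PD-L1, differed by 1.29 ± 0.61 (adjusted p = 0.25). The receptor under treatment, Cd40, measured 6.67, 6.93, 8.77 and 7.79 in MEKi/CD40 tumours, 6.19, 6.38, 4.74, 6.33 and 6.30 in MEKi tumours, 7.70, 7.65, 7.85 and 7.57 in anti-CD40 tumours and 7.23, 7.20, 6.88, 7.18 and 6.65 in controls, without a call against controls (adjusted p = 0.60). Of 18 genes of its pathway 4 were higher and 1 lower, with 2 to 5 higher as each tumour was left out. The NF-kB inhibitor Nfkbie was among the higher ones (0.72 ± 0.14, adjusted p = 0.014), and the lower member was the NF-kB subunit Rel (2.00-fold lower, adjusted p = 0.0068).

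Further metabolic and hormone-related genes rose in smaller numbers. Of 18 NRF2 and glutathione genes 5 were higher and 1 lower. Gstm2, a glutathione transferase, measured 10.14, 9.71, 9.75 and 9.24 in MEKi/CD40 tumours, against 4.24, 5.71, 4.85, 6.08 and 6.02 in controls (4.33 ± 0.43, adjusted p = 0.0015), and the secreted peroxidase Gpx3 9.28, 9.78, 11.90 and 9.89, against 6.30, 5.40, 5.40, 6.97 and 4.50 (4.50 ± 0.68). The NRF2 target Nqo1 was not called (-0.32, adjusted p = 0.63). Of 14 glucocorticoid response genes 8 were higher and 0 lower, with 3 called without control 2, control 3, MEKi/CD40 tumour 1 or MEKi/CD40 tumour 2, and 1 without tumours 2 and 4 together. Hsd11b1, which regenerates active glucocorticoid, measured 11.59, 10.78, 10.74 and 10.77 in MEKi/CD40 tumours, against 6.81, 7.93, 7.04, 7.66 and 9.23 in controls (3.24 ± 0.50, adjusted p = 0.0061), while the receptor target Fkbp5 differed by -0.14 (adjusted p = 0.82). Of 16 retinoid genes 3 were higher, among them Aldh1a1, which makes retinoic acid, at 7.87, 7.60, 7.04 and 7.72 in MEKi/CD40 tumours and 2.17, 2.39, 2.39, 2.51 and 3.32 in controls, 4 of which were at the floor (at least 22.5-fold higher, adjusted p = 0.00030). Carbonic anhydrase 9 (Car9), a hypoxia target, measured 10.80, 11.49, 9.35 and 9.88 in MEKi/CD40 tumours, against 6.89, 7.51, 7.17, 7.10 and 7.36 in controls (3.17 ± 0.42, adjusted p = 0.0036), and in all 4 of 20 hypoxia genes were higher and 1 lower. Cpt1a, which admits fatty acids to mitochondria, was 2.83-fold higher (adjusted p = 0.0030). Of 17 clock genes 2 were lower, Ciart (-1.66 ± 0.25) and Cry1 (-0.64 ± 0.06), a share near the 12% of all genes.

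The single drugs place these changes. MEKi/CD40 tumours differed from MEKi tumours in 515 genes (2.83%), 178 higher and 337 lower, and from anti-CD40 tumours in 2711 (14.9%), 1062 higher and 1649 lower. The number of calls against MEKi moved with single tumours: 1127 probe sets were called, but 29 without MEKi tumour 5, 36 without MEKi tumour 4 and 38 without MEKi tumour 2, while 232 to 850 were called with 1 MEKi/CD40 tumour left out. Probe sets at an unadjusted p below 0.05 numbered 7564 with all tumours and 6400, 6066 and 5931 without MEKi tumours 5, 4 and 2. MEKi tumours 3 to 5, like controls 3 to 5, carried the higher title numbers. With this run as a block 28 probe sets were called against MEKi, and 10 within the lower run. At an unadjusted p below 0.05 there were 4219 and 3553. The gene calls against MEKi given below come from the fit without this block. All 3 comparisons share the MEKi/CD40 tumours. In 140 genes MEKi/CD40 tumours were called higher than all other groups and in 256 lower. Clec3b averaged 8.69 ± 0.57 in MEKi/CD40 tumours, 3.02 ± 0.83 in MEKi tumours, 2.48 ± 0.00 in anti-CD40 tumours and 2.47 ± 0.01 in controls (SD), and was called against MEKi (adjusted p = 0.012). Cd163 averaged 7.27 ± 1.63 in MEKi/CD40 tumours, 2.43 ± 0.40 in MEKi tumours, 2.18 ± 0.04 in anti-CD40 tumours and 2.20 ± 0.04 in controls (against MEKi, adjusted p = 0.029). Both were at the floor in 4 of 5 MEKi tumours and in all 4 anti-CD40 tumours, so that no size is given for these differences.

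For Col1a1, Prc1, Serping1, Acta2 and Kcne3 the MEKi mean lay between those of MEKi/CD40 tumours and controls. Col1a1 averaged 13.79 ± 0.20 in MEKi/CD40 tumours, 12.06 ± 0.83 in MEKi tumours, 8.83 ± 0.70 in anti-CD40 tumours and 8.54 ± 0.83 in controls, and the step over MEKi was not called (1.73 ± 0.42, adjusted p = 0.080). Prc1 averaged 8.27 ± 0.16 in MEKi/CD40 tumours, 9.12 ± 0.26 in MEKi tumours, 9.97 ± 0.11 in anti-CD40 tumours and 9.97 ± 0.14 in controls, with a difference from MEKi of -0.85 ± 0.14 (adjusted p = 0.036). Serping1 averaged 12.11 ± 0.75 in MEKi/CD40 tumours, 8.72 ± 0.95 in MEKi tumours, 8.16 ± 1.28 in anti-CD40 tumours and 5.43 ± 0.40 in controls (against MEKi 3.38 ± 0.57, adjusted p = 0.036). Acta2 averaged 11.66 ± 0.78 in MEKi/CD40 tumours, 9.63 ± 0.13 in MEKi tumours, 9.35 ± 0.70 in anti-CD40 tumours and 9.03 ± 0.34 in controls (against MEKi 2.03 ± 0.34, adjusted p = 0.036). Kcne3, a potassium channel subunit, averaged 3.92 ± 0.74 in MEKi/CD40 tumours, 6.72 ± 0.33 in MEKi tumours, 6.62 ± 0.51 in anti-CD40 tumours and 7.25 ± 0.35 in controls, and fell against both single drugs (adjusted p = 0.022 and 0.013). Il12b, a subunit of IL-12 and a known product of CD40-stimulated dendritic cells, averaged 3.37 ± 0.42 in MEKi/CD40 tumours, 2.90 ± 0.08 in MEKi tumours, 5.42 ± 0.60 in anti-CD40 tumours and 3.07 ± 0.38 in controls, and was lower in MEKi/CD40 than in anti-CD40 tumours (adjusted p = 0.016), with MEKi and control tumours mostly at the floor. Car9 averaged 10.38 ± 0.95 in MEKi/CD40 tumours, 11.02 ± 0.74 in MEKi tumours, 7.43 ± 1.41 in anti-CD40 tumours and 7.21 ± 0.24 in controls, and the MEKi/CD40 and MEKi means differed by -0.64 ± 0.55 (adjusted p = 0.67).

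**Figure D5:**
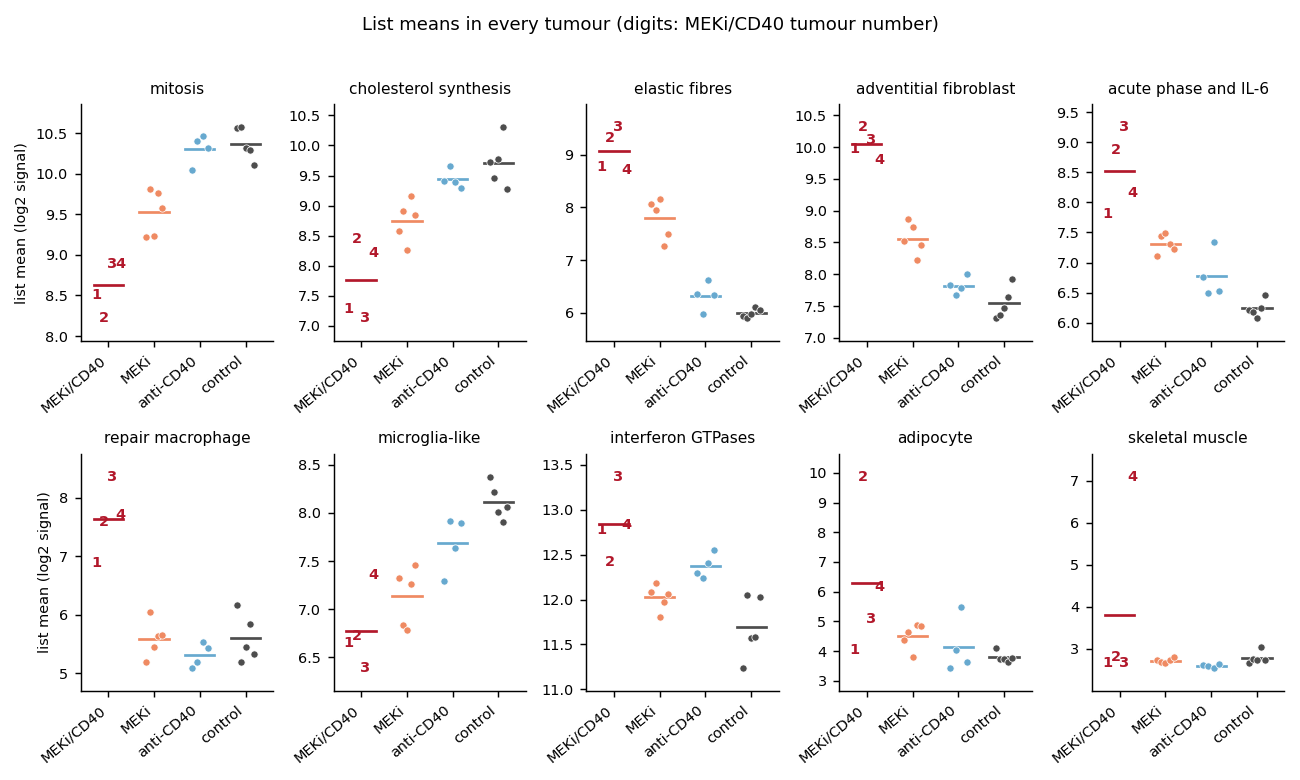
Mean log2 signal over the measured genes of 10 lists in every tumour of the MEKi/CD40 (n = 4), MEKi (n = 5), anti-CD40 (n = 4) and control groups (n = 5). MEKi/CD40 tumours are drawn as their tumour number, other tumours as points, and lines mark group means. Tumour 2 is highest for adipocyte markers (9.86), tumour 4 for muscle markers (7.09), and tumour 3 for repair macrophage markers (8.36) and interferon GTPases (13.36).

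The adipocyte mean was above all controls in MEKi/CD40 tumours 2, 3 and 4, and the muscle mean in tumour 4 alone. The mean signals of epidermal and red cell markers were higher in all 4 than in any control. These traits were partly shared with MEKi tumours, with means of 3.80 to 4.88 for adipocyte, 3.10 to 3.72 for epidermal and 3.605 to 4.037 for red cell markers. Anti-CD40 tumour 3 had an adipocyte mean of 5.47. The adipocyte hormone Adipoq measured 2.47, 13.30, 6.93 and 10.34 in MEKi/CD40 tumours, against 3.91, 2.33, 2.39, 2.33 and 2.33 in controls (adjusted p = 0.12, and 0.021 without MEKi/CD40 tumour 1), and 1 of 14 adipocyte markers was called, Lpl. Muscle creatine kinase (Ckm) was 2.16, 2.16, 2.16 and 7.86 in MEKi/CD40 tumours, with tumour 4 alone above the floor, and at the floor in all controls. The mean over 18 muscle markers was 2.68, 2.81, 2.68 and 7.09 in MEKi/CD40 tumours, against 2.67 to 3.05 in controls, with 0 called by limma and 1 at an unadjusted p below 0.05. Epidermal markers averaged 3.21 to 3.82 in MEKi/CD40 tumours and 2.78 to 3.04 in controls. The called members were Sbsn, a secreted epidermal protein (9.52, 9.93, 9.64 and 8.91 in MEKi/CD40 tumours, 5.32, 5.25, 5.61, 5.64 and 7.24 in controls, adjusted p = 0.0025), and Dmkn, while the basal keratin Krt5 was at the floor in both groups. Alas2, the red cell enzyme of haem synthesis, measured 5.94, 5.63, 6.06 and 7.15 in MEKi/CD40 tumours, against 2.17, 2.17, 2.17, 2.17 and 2.16 in controls (at least 9.16-fold higher, adjusted p = 0.00067), and the mean over 6 red cell markers was 4.41 ± 0.16 in MEKi/CD40 tumours and 3.57 ± 0.017 in controls (SD). With the adipocyte mean as a covariate 3061 probe sets were called, including 27 of the 29 mitosis genes, 17 cholesterol genes, 10 elastic fibre genes, 8 adventitial genes and 5 repair macrophage genes. MEKi/CD40 tumour 1, whose adipocyte and muscle means lay within the control ranges, measured 9.97 for the adventitial list, against 7.31 to 7.93 in controls, and 8.77 for the elastic fibre list, against 5.90 to 6.12. Its epidermal mean (3.49) and red cell mean (4.43) lay above the control ranges. The part of fat, muscle, epidermis or red cells in the matrix result was not tested.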

How the data were processed

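Total RNA of whole tumour pieces (200 ng, RNA integrity number above 8 per the labels) was hybridised to single-colour Affymetrix Mouse430_2 arrays, 1 tumour per array. The authors deposited log2 expression values per probe set, processed by RMA in Chipster per their notes and methods, with software versions and the exact background step not given in the sources used here. Values reached from 2.16 to 16.34, and 34.5% equalled 2.16. Some calls rest on values near this limit, and the size of such differences is uncertain. No further normalization was applied. Of 45101 probe sets, 64 Affymetrix control sets were left out. Of the 45037 others, 34945 had 1 symbol in the platform annotation, 932 several and 9160 none. Each of 18193 genes was represented by its probe set with the highest mean over the 18 arrays, sets with the suffix _x_at only where no other existed, and levels of different genes are not compared.

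Groups came from the treatment labels, which the array titles repeat. MEKi/CD40 was tested against control, MEKi and anti-CD40 in 2-group fits with lmFit and eBayes (limma 3.58.1, R 4.3.3), with Benjamini-Hochberg adjustment over all probe sets, called at 0.05. The fit was tested on simulated data with normal values, the same spread in both groups and differences planted only well above the floor. The simulation held neither the floor, the larger spread of MEKi/CD40 tumours nor the run of title numbers, so it does not cover them. Replicates were separate tumours by their labels, and each p-value sets the group difference against the spread between tumours within groups. That spread includes differences between the pieces taken and, in controls and MEKi tumours, between the runs of title numbers. A value was at the floor below 3, or within 0.3 of a value below 6 that its probe set repeated as its lowest on at least 6 of 18 arrays. Where a group lay at the floor, a fold is given as a lower bound, the brighter group's mean over the dimmer group's mean with values below 3 raised to 3, and a list median with genes at their bound uses the same rule. Genes to name were the 10 largest rises and 10 largest falls above the floor without overlap, the 8 strongest switched on or off, the 2 with the smallest p in each of 61 lists and a fixed set, and further members were added after their values were seen. For the largest rises and falls, wherever named, the lack of overlap was thus set by the choice. The members and lists were chosen with earlier results of these data known. Promoter windows of RefSeq genes (GRCm38.p6) were matched by symbol, and motifs were searched on both strands. Alternatives were the fit over all 18 arrays, probe sets above the floor only, quantile, cyclic loess or median scaling, trend and robust moderation, the replicate number or the run of title numbers as a block, the lower run alone, an adipocyte covariate, omission of MEKi/CD40 tumours 2 and 4 and of each tumour in turn, and the mean of a gene's probe sets.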

Additional observations from a re-analysis of the deposited data

Results flagged for a closer look

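Over 398 groups of 212 named genes, 29 had 1 tumour set apart from the others of its group by more than the critical value of Dixon's test, and chance alone sets apart about 1 in 20 groups. In MEKi/CD40 tumours, tumour 3 stood high for Saa3 (14.80, the next 12.48) and Lbp (11.51) and low for Igfbp7 (12.98). Tumour 1 stood high for Hsd11b1 (11.59) and Col18a1 (9.93) and low for Cdh1 (4.35), Spry4 (5.40) and Pcolce2 (5.83). Tumour 4 stood high for the muscle gene Ckm (7.86, the others at the floor) and for Gpr34 (6.33), and tumour 2 for Hspa5 (14.76).

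Among controls, tumour 5 was the highest for Ccn5 (4.62), Prelp (3.41), Igfbp7 (12.04), B2m (15.03), Sbsn (7.24) and Stat3 (11.38). Control 1 was the highest for Saa3 (7.28), Ccdc80 (6.22), Ptx3 (3.73), Adipoq (3.91) and Fbln2 (7.43). Control 4 was the highest for Lum (5.35), Cma1 (3.93) and Fbn2 (8.23) and the lowest for Tnnt2 (7.82) and Hspa4l (10.79). Control 3 was the highest for Igfbp5 (7.40), and control 2 the lowest for Rgs5 (9.05). Every one of these control values for a called gene lay on its own group's side of the MEKi/CD40 values.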

How the results depend on the processing

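Against control, 2479 probe sets were higher and 4219 lower. These counts were 3964 and 5734 with all 18 arrays in 1 fit, 3581 and 5210 without probe sets at the floor on every array, 2697 and 5428 with quantile normalization, 3045 and 3595 with cyclic loess, 3425 and 4068 with arrays centred on their median, 1752 and 2895 with trend and robust moderation, 1316 and 2544 with the run of title numbers as a block, 241 and 469 within the lower run, 1268 and 2171 without MEKi/CD40 tumours 2 and 4, and 1163 and 1898 with the adipocyte mean as a covariate. Leaving out 1 tumour gave 1648 (without control 3) to 3245 (without MEKi/CD40 tumour 3) higher and 3063 to 4567 lower. Against MEKi, 1127 probe sets changed, and 4286, 2654, 1723, 871 and 1775 under the first 5 of these settings in the same order, 11 with trend and robust moderation, 28 with the run as a block, 10 within the lower run, 379 without tumours 2 and 4, 102 with the covariate and 29 to 850 with 1 tumour left out. Against anti-CD40, 5231 changed, and 8996, 7486, 6363, 5090 and 6106 under the same 5 settings, 3310 with trend and robust moderation, 2296 without tumours 2 and 4, 2692 with the covariate and 2704 to 6594 with 1 tumour left out. Trend and robust moderation estimates the spread from values that are constant at the floor for many probe sets, and the cause of its lower counts was not tested.

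Whether replicate numbers in the titles pair the tumours cannot be settled from so few weak correlations. The deviations of same-numbered MEKi/CD40 and control tumours correlated at -0.11, -0.15, -0.18 and -0.03. Those of MEKi/CD40 and MEKi tumours correlated at 0.21, 0.03, -0.21 and 0.24, and those of MEKi/CD40 and anti-CD40 tumours at 0.18, 0.02, 0.28 and 0.05. With the replicate number as a block, 31 probe sets were higher and 82 lower against control, 0 changed against MEKi (limma, 5592 at an unadjusted p below 0.05) and 1276 against anti-CD40. In this fit control 5 has no partner and adds nothing to the difference.

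Of 173 named genes called against control, 0 reversed under any setting. Every setting reuses the arrays from which many of these genes were chosen, so this 0 is no independent support. The calls lost numbered 166 with the replicate block, 133 within the lower run, 46 with the covariate, 43 with the run as a block, 40 without tumours 2 and 4, 5 to 20 with 1 tumour left out and 7 or fewer under the others. Of the 173, 110 had several probe sets, all called the same way for 49 and none called the other way for any. All MEKi/CD40 arrays lie in the lower run of title numbers with 2 controls, and 3 of the controls lie in the higher run, so that the run and the group are partly confounded. The comparison with MEKi is confounded in the same way, since MEKi tumours 3 to 5 lie in the higher run. Signal near the floor limits folds to bounds, and the number of arrays limits precision.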
